A study of Mus musculus with 12 samples.

Results

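The mouse oviduct is a tube built of several cell layers, and 41 marker genes of its ciliated, secretory, muscle, stromal, endothelial and immune cells were read here in untreated mice without estrogen receptor-α (ESR1). The genes were taken from a fixed list of 6 groups. Every probe set (a set of short probes for a transcript, summarized as a single value) that carried only that gene symbol was used, which gave 75 probe sets of the 45101 on the array, and 41 of the 18194 genes with such a probe set. The study hybridized oviductal RNA of ESR1KO and WT mice, either untreated or 48 h after 5 IU of PMSG, a gonadotropin from pregnant mares that makes ovarian follicles grow, to 12 Affymetrix Mouse Genome arrays, 3 per group. Only the 3 untreated ESR1KO arrays are described, because among the deposited columns only theirs can be read by probe set name. These mice were immature females of 23 days of age on a C57BL/6 background, with a global deletion of ESR1 obtained through a Cre recombinase that is active in the oocyte of the dam, and were ESR1-/- with or without the ZP3Cre transgene. Each array measured the whole oviducts of 3 to 4 pooled mice, and the replicates came from different mice. A pool averages over its mice, so that the spread between arrays is a spread between pools. With 1 group there is no comparison between groups and no test, and 3 arrays limit the precision.

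The oviductal epithelium consists of multiciliated cells, whose beating cilia move gametes and embryos, and of secretory cells, which release oviductal glycoprotein and other components of the luminal fluid. The fate of a multiciliated cell is set by a transcription factor cascade that ends in FOXJ1 and the RFX factors, whereas PAX8 and SOX17 are known from secretory cells. Around the epithelium lie a fibroblast stroma with blood and lymph vessels and a coat of smooth muscle, and macrophages and lymphocytes are scattered through these layers. ESR1 has been localized in epithelial, stromal and muscle cells of this organ.

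The deposited values are log2 expression signals, so that a difference of 1 is 2-fold. A probe set with a mean signal under 4 is called near background. The median signal of an array was 5.66 to 5.72, with 41.9% to 42.3% of its probe sets below 4. Over all probe sets the 3 arrays correlated at 0.985 to 0.993 with each other, lowest between replicates 1 and 3, but at -0.146 to -0.123 with the other 9 columns, which correlated at 0.959 to 0.997 among themselves and share another row order. The targeted gene, Esr1, had signals of 10.42, 12.13 and 11.05 (replicates 1, 2 and 3) by 1460591_at, of 10.28, 11.21 and 9.26 by 1435663_at, and of 3.72, 6.13 and 3.67 by 1421244_at. Replicate 2 was the highest of the 3 arrays by each of them. No WT array could be read by name and the position of these probes relative to the deleted part is not known here, so that Esr1 does not check the genotype label.

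Markers of every layer of the oviduct were detected. Of the 41 genes, 38 had at least 1 probe set with a mean signal of 4 or more, compared with 12182 of 18194 genes over the whole array. The remaining markers were the lymphocyte genes Ms4a1, Gzma and Cd8a. Of the 75 probe sets, 62 (82.7%) lay at or above the limit, compared with 26149 of 45101 (58.0%) over the whole array. When the brightest probe set of each gene was taken, mean signals ranged from 11.69 to 13.92 for ciliated markers, from 11.07 to 15.94 for secretory and epithelial markers, from 9.68 to 14.80 for smooth muscle markers and from 10.73 to 15.38 for stromal markers. The same range was 4.91 to 8.79 for endothelial and 3.04 to 10.66 for immune markers. Probe sets bind with different strength, so these signals place a gene above or near background and do not rank one gene against another. The whole oviduct is a mixture, in which fewer cells of a type and less RNA per cell cannot be told apart.

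**Figure D1:**
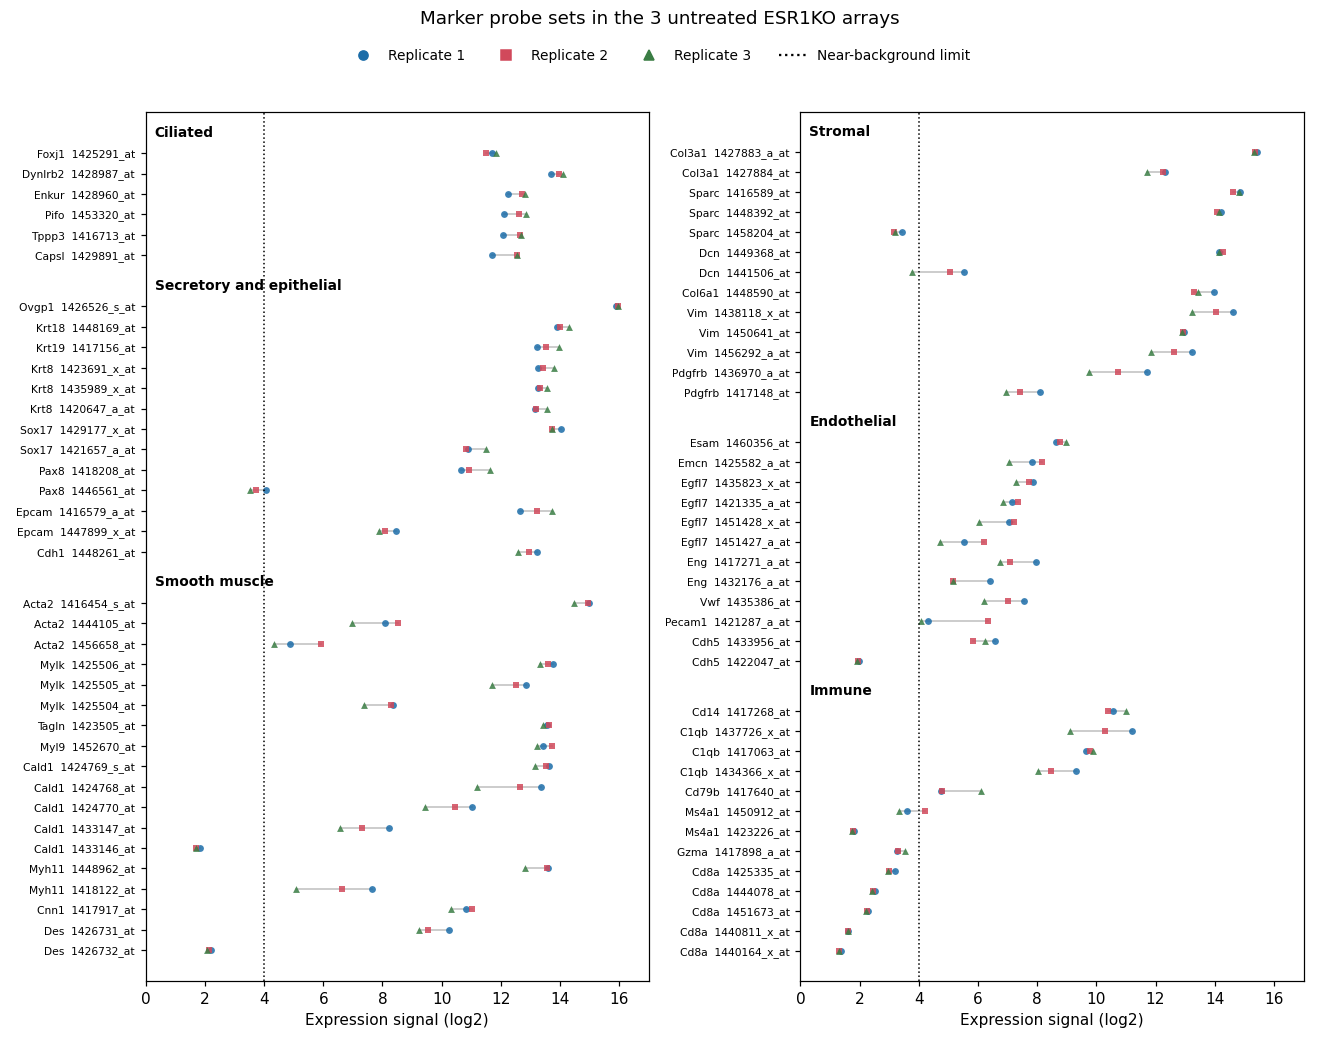
Log2 expression signal (horizontal axis) of each of the 75 marker probe sets in untreated ESR1KO replicates 1, 2 and 3, grouped by cell type, with a grey line from the lowest to the highest array and a dotted line at the near-background limit of 4. The ciliated markers all lie between 11.51 and 14.11, the 5 Cd8a probe sets all lie below the limit, and replicate 3 is the lowest array for all 18 smooth muscle probe sets.

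The plot of marker signals by replicate shows all 3 values of every probe set, from which the following account of each cell type is drawn.

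All 6 ciliated markers had high signals in each array, and they moved together: replicate 3 was the highest array for 6 of 6 and replicate 1 the lowest for 5 of 6, against 49.1% and 46.5% of the probe sets of the array with a mean signal of at least 4. Foxj1, the transcription factor that turns on the motile cilium programme, had signals of 11.71, 11.51 and 11.84 in replicates 1, 2 and 3 (11.69 ± 0.16, SD, n = 3). It was the exception, with replicate 2 the lowest, and varied least of the list. Dynlrb2, a light chain of the dynein motor, had signals of 13.69, 13.95 and 14.11. Enkur, a protein of the axoneme, had signals of 12.24, 12.72 and 12.82. For both, replicate 2 lay nearer to replicate 3 than to replicate 1. Pifo, which acts at the base of the cilium, had signals of 12.09, 12.62 and 12.85. Tppp3, a tubulin polymerization promoting protein, had signals of 12.06, 12.64 and 12.70. Capsl, a calcium-binding calcyphosine-like protein, had signals of 11.69, 12.53 and 12.56 (12.26 ± 0.49), the widest spread of the list. The list medians were 12.08, 12.63 and 12.76, and the median difference of replicate 1 from replicate 3 was -0.61, against 0.07 over all probe sets and -0.16 over those with a mean signal of at least 4.

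The promoters of these genes are shown because the list moved together and because RFX factors, which act with FOXJ1 on cilium genes, bind a motif whose core is GTTGCC. The 250 bases before each RefSeq transcription start of GRCm38.p6 were searched on both strands. Of the 4 ciliated markers with a window, Enkur, Pifo and Dynlrb2 contained GTTGCC or its reverse complement GGCAAC, and Capsl did not. The same letters occurred for 11.8% of 27025 genes and for 5 of the 25 markers with a window. Besides the ciliated genes these were the endothelial marker Eng and the immune marker Gzma, whose stretches are not printed. The stretches below run 5′ to 3′ on the strand of the gene, with the motif in capitals, and lie at chr2:21205366-21205429 (minus strand, Enkur), chr3:106001498-106001539 (minus strand, Pifo) and chr8:116504934-116504999 (plus strand, Dynlrb2), upstream of the first exon.
Enkur: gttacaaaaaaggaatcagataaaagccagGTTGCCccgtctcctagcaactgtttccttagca
Pifo: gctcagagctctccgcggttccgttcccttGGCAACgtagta
Dynlrb2: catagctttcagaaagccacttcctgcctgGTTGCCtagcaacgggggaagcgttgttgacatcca
A forkhead motif, TGTTTAC, was found for 0 of these 4 genes and for 3.54% of all genes. These matches describe the letters of a window and are neither sites nor causes. Foxj1 and Tppp3 had no entry in the promoter table.

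The secretory and epithelial markers also had high signals, and most of them were highest in replicate 3, with exceptions in both directions. Ovgp1, the oviductal glycoprotein released by secretory cells, had signals of 15.90, 15.97 and 15.95 (15.94 ± 0.04), with little difference between the arrays. The keratins of simple epithelia were all lowest in replicate 1 and highest in replicate 3. Krt18 had signals of 13.89, 14.01 and 14.30, and Krt19 had signals of 13.23, 13.54 and 13.97. The 3 probe sets of Krt8 had means of 13.30 to 13.49 and differences of replicate 1 from replicate 3 of -0.56 to -0.29, and so gave nearly the same level and the same order of arrays.

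Pax8, the transcription factor of the secretory lineage, had signals of 10.67, 10.92 and 11.63 by 1418208_at. Its other probe set, 1446561_at, was near background, at a mean of 3.76. The adhesion molecule Epcam had signals of 12.64, 13.23 and 13.74 by 1416579_a_at, but of 8.45, 8.10 and 7.87 by 1447899_x_at. The order of the arrays was therefore opposite in the probe sets of this gene, and the same held for those of Pax8. Sox17, a transcription factor of the oviductal epithelium, had signals of 14.04, 13.73 and 13.74 by 1429177_x_at and of 10.90, 10.82 and 11.51 by 1421657_a_at, highest in replicate 1 and in replicate 3, respectively. Cdh1, the cadherin of epithelial junctions, had signals of 13.21, 12.97 and 12.57 and ran against the keratins, with replicate 1 the highest. In all, replicate 1 was below replicate 3 for 9 of the 13 probe sets, with a median difference of -0.40.

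Replicate 3 was the lowest array for all 18 probe sets of the 8 smooth muscle markers, compared with 45.4% of all probe sets. With a mean signal of at least 4 it was the lowest for 16 of 16, compared with 29.7%. Acta2, smooth muscle actin, had signals of 14.97, 14.96 and 14.47 by 1416454_s_at, of 8.08, 8.52 and 6.98 by 1444105_at, and of 4.86, 5.91 and 4.34 by 1456658_at. Its brightest probe set thus placed replicates 1 and 2 together, whereas the weaker ones put replicate 2 highest. Myh11, the smooth muscle myosin heavy chain, had signals of 13.58, 13.57 and 12.81 by 1448962_at and of 7.65, 6.62 and 5.09 by 1418122_at. The second of these had the widest spread of all 75 probe sets (6.45 ± 1.29), and its difference of replicate 1 from replicate 3 was 2.57, against 0.77 for the first.

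Cald1, which encodes the actin-binding caldesmon, had 4 probe sets above the limit. Its brightest, 1424769_s_at, had signals of 13.61, 13.52 and 13.16, whereas 1424768_at had signals of 13.34, 12.65 and 11.19, a difference of replicate 1 from replicate 3 of 2.15. The other 2 had differences of 1.57 and 1.69, and the last probe set, 1433146_at, was near background at a mean of 1.75. Mylk, the kinase of the myosin light chain, was measured at means of 13.56, 12.36 and 8.01, and in all 3 probe sets the arrays had the same order. Tagln (transgelin) had signals of 13.55, 13.64 and 13.44 (13.54 ± 0.10), and Myl9, the regulatory myosin light chain, of 13.42, 13.73 and 13.21. Cnn1 (calponin) had signals of 10.84, 11.03 and 10.33, and Des, the muscle intermediate filament, of 10.25, 9.54 and 9.25 by 1426731_at, while 1426732_at was near background at a mean of 2.14. Of these genes, Tagln, Myl9 and Cnn1 had replicate 2 as the highest array. The median difference of replicate 1 from replicate 3 was 0.64 over the 18 probe sets and 0.88 over the 16 at or above the limit.

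The promoter of Myl9 is shown because genes of contractile smooth muscle are known targets of serum response factor, which binds the CArG box. It was searched only as CC, then 6 bases that are each A or T, then GG. Of the 6 smooth muscle markers with a promoter window, only Myl9 contained these letters in the 250 bases before its start, against 1.62% of all genes. Boxes with other letters were not searched. The stretch lies at chr2:156775273-156775342 of GRCm38.p6, on the plus strand, with the motif in capitals, and is credited to RefSeq like those above.
Myl9: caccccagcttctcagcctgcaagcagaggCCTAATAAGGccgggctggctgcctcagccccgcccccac
The palindromic estrogen response element GGTCANNNTGACC was found for 0 of the 25 markers with a window and for 0.0666% of all genes, which says only that these letters were not in these windows.

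Of the stromal markers, Col3a1, Dcn and Sparc differed little between the arrays by their brightest probe sets, whereas Vim and Pdgfrb were lower in replicate 3 by theirs. Col3a1, a fibrillar collagen, had signals of 15.44, 15.36 and 15.33 by 1427883_a_at and of 12.31, 12.27 and 11.71 by 1427884_at. Dcn (decorin, a matrix proteoglycan) had signals of 14.15, 14.28 and 14.16 by 1449368_at, but of 5.54, 5.05 and 3.77 by 1441506_at. Sparc, a matrix glycoprotein, had signals of 14.85, 14.60 and 14.82 by 1416589_at and of 14.22, 14.08 and 14.14 by 1448392_at, with 1458204_at near background at a mean of 3.26. Its arrays therefore differed by less than 0.3 in each probe set, with replicate 2 the lowest in each.

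Vim, the intermediate filament of mesenchymal cells, had signals of 12.96, 12.93 and 12.88 by 1450641_at, but of 14.63, 14.03 and 13.25 by 1438118_x_at and of 13.22, 12.63 and 11.83 by 1456292_a_at. The last 2 gave nearly the same difference of replicate 1 from replicate 3 (1.38 and 1.39), and the first gave 0.08. Col6a1, a collagen of microfibrils, had signals of 13.97, 13.30 and 13.44. Pdgfrb, the receptor of platelet-derived growth factor B that marks stroma and pericytes, had signals of 11.70, 10.73 and 9.76 by 1436970_a_at and of 8.10, 7.43 and 6.94 by 1417148_at, with the same order of arrays in both. Replicate 1 was above replicate 3 for 12 of the 13 stromal probe sets, with a median difference of 0.54.

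Endothelial markers had moderate signals, and the median SD of the 12 probe sets was 0.60, against 0.32 for all markers, whose signals were mostly higher. Esam, an endothelial adhesion molecule, had signals of 8.65, 8.76 and 8.97 and was the exception of the list, with replicate 3 the highest. Emcn (endomucin) had signals of 7.82, 8.16 and 7.03, and Vwf (von Willebrand factor) of 7.55, 7.03 and 6.20. Eng (endoglin) had signals of 7.95, 7.08 and 6.76 by 1417271_a_at and of 6.39, 5.15 and 5.15 by 1432176_a_at, and so was highest in replicate 1 by both. Egfl7, a factor secreted by endothelium, was lowest in replicate 3 by each of its 4 probe sets, whose means ranged from 5.47 to 7.61. Cdh5, the cadherin of endothelial junctions, had signals of 6.58, 5.83 and 6.23 by 1433956_at, with 1422047_at near background at a mean of 1.95. Pecam1, the adhesion molecule CD31, had signals of 4.32, 6.35 and 4.06. It was close to the limit in replicates 1 and 3 and well above it only in replicate 2. Replicate 3 was the lowest array for 10 of the 12 probe sets, and the median difference of replicate 1 from replicate 3 was 0.68.

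The listed immune markers divided into those of myeloid cells (Cd14 and C1qb), which were detected, and those of lymphocytes, most of which were near background. Cd14, a co-receptor for lipopolysaccharide on monocytes and macrophages, had signals of 10.57, 10.39 and 11.01. C1qb, a chain of complement C1q made by macrophages, had signals of 9.65, 9.77 and 9.88 by 1417063_at, of 11.20, 10.30 and 9.13 by 1437726_x_at and of 9.32, 8.46 and 8.03 by 1434366_x_at. Its probe sets were all above the limit but disagreed on the arrays: the difference of replicate 1 from replicate 3 ran from -0.24 to 2.07, the widest range within a marker gene.

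Among the lymphocyte markers, only Cd79b had a mean above the limit. Cd79b, a chain of the B cell receptor, had signals of 4.75, 4.79 and 6.11, so that replicate 3 stood above the other 2 arrays. Ms4a1, the B cell antigen CD20, had signals of 3.61, 4.21 and 3.32 by 1450912_at and a mean of 1.78 by 1423226_at. Gzma, a granzyme of cytotoxic cells, had signals of 3.26, 3.29 and 3.54, and the 5 probe sets of Cd8a, a co-receptor of cytotoxic T cells, had means of 1.33 to 3.04. A further 5 probe sets of B cell genes and 9 of T and NK cell genes also lay near background without exception, with highest means of 2.40 and 3.03. Of 14 probe sets of other macrophage genes, 11 reached the limit and 3 were near background. A signal near background does not show that the cells were absent, since GC-RMA compresses weak signals.

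Of the 41 genes, 20 had several probe sets, and in most pairs these picked out the same array as the highest and the same as the lowest. In 43 of 55 pairs of probe sets for a marker gene (78.2%), the same array was the highest, compared with 47.7% of 30406 pairs over all genes with several probe sets. The same array was the lowest in 81.8% of marker pairs and in 44.9% of all pairs. In the pairs with both means at 4 or more (35 pairs of 15 genes), the shares were 71.4% and 88.6%, against 47.1% and 48.3% over all genes. Pairs of a gene share probes or transcripts and are no replicates, and these counts carry no test. For 9 of the 15 genes with at least 2 probe sets above the limit, a single array was the highest in all of them, and for Sox17, Epcam, Acta2, Dcn, Egfl7 and C1qb it was not. For 5 genes, namely Pax8, Cald1, Des, Sparc and Cdh5, at least 1 probe set was near background while another had a mean above 6. For Ms4a1 and Cd8a all probe sets were near background.

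Agreement on the order of the arrays did not mean agreement on the size of the difference. Within Cald1 the difference of replicate 1 from replicate 3 ranged from 0.45 to 2.15, within Myh11 from 0.77 to 2.57, within Vim from 0.08 to 1.39 and within Dcn from -0.01 to 1.77. In 9 of the 15 genes with at least 2 probe sets above the limit, the brightest gave the smallest difference in size, among them Cald1, Myh11, Dcn and Col3a1. It did not for Krt8, Epcam, Vim, Pdgfrb, Egfl7 and C1qb. The same count was not made over all genes, so that it is no trait of the markers. The median gap between 2 probe sets of a marker was 0.58 for pairs above the limit, close to the 0.55 found over all genes. For the 21 markers with a single probe set no such range can be given.

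**Figure D2:**
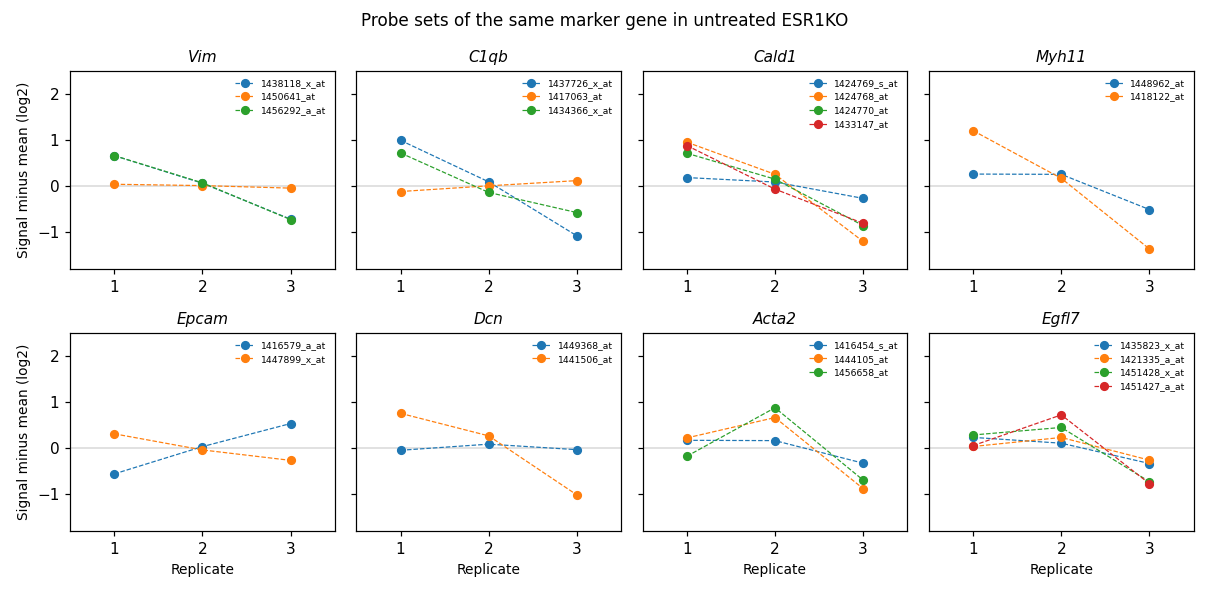
Log2 signal of each probe set minus its own mean over the 3 arrays (vertical axis) for 8 marker genes, by untreated ESR1KO replicate (horizontal axis), with 1 colour for each probe set with a mean of at least 4. Dashed lines only join the values of a probe set, since replicates have no order: the probe sets of Cald1 and Myh11 share the order of the arrays but not the size, those of Epcam cross, and for Vim 2 probe sets nearly coincide while 1450641_at is flat.

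The plot of probe sets of the same marker gene shows 8 of the 15 genes with several probe sets above the limit. In it, Acta2 and Egfl7 have their brightest probe set highest in replicate 1 and the others in replicate 2.

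Replicate 2 was compared with the mean of replicates 1 and 3, and for most markers it lay between or close to them. Of the 75 probe sets, 3 (4.00%) were at least 2-fold higher in replicate 2 and 0 were at least 2-fold lower, while over the array 0.656% were higher and 0.379% lower. These were Pecam1, 2.16 above the mean of the other arrays on the log2 scale, Acta2 by 1456658_at (1.31 above) and Egfl7 by 1451427_a_at (1.08 above). All had mean signals of 4.91 to 5.47, not far above the limit, and the other probe sets of Acta2 and Egfl7 differed by 0.24 to 0.99 and by 0.16 to 0.67. The brightest probe set of Acta2 differed by 0.24 only. The list medians of this difference were 0.17 for ciliated, -0.09 for secretory and epithelial, 0.24 for smooth muscle, 0.16 for endothelial and -0.02 for immune markers, and -0.0016 for stromal markers. By contrast, the 3 probe sets of Esr1 were 1.39, 1.44 and 2.43 above, all past 2-fold.

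Replicates 1 and 3 stood apart for more markers than replicate 2 did, and for more probe sets of the whole array. Replicate 1 was at least 2-fold higher than the mean of the other arrays for 10 of the 75 probe sets and lower for 0, while over the array 3.11% were higher and 2.57% lower. Replicate 3 was at least 2-fold lower for 15 and higher for 1, Cd79b, while over the array 3.62% were lower and 1.52% higher. The 15 low probe sets belonged to smooth muscle (6), stromal (4), endothelial (4) and immune (1) markers. No ciliated or secretory and epithelial probe set was among the 10 or the 15. These lists hold only 6 and 13 probe sets, so that the shares over the array would also place few or none there. Replicate 2 was the middle array for 52 of 75 marker probe sets (69.3%) and for 60.7% of all probe sets.

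**Figure D3:**
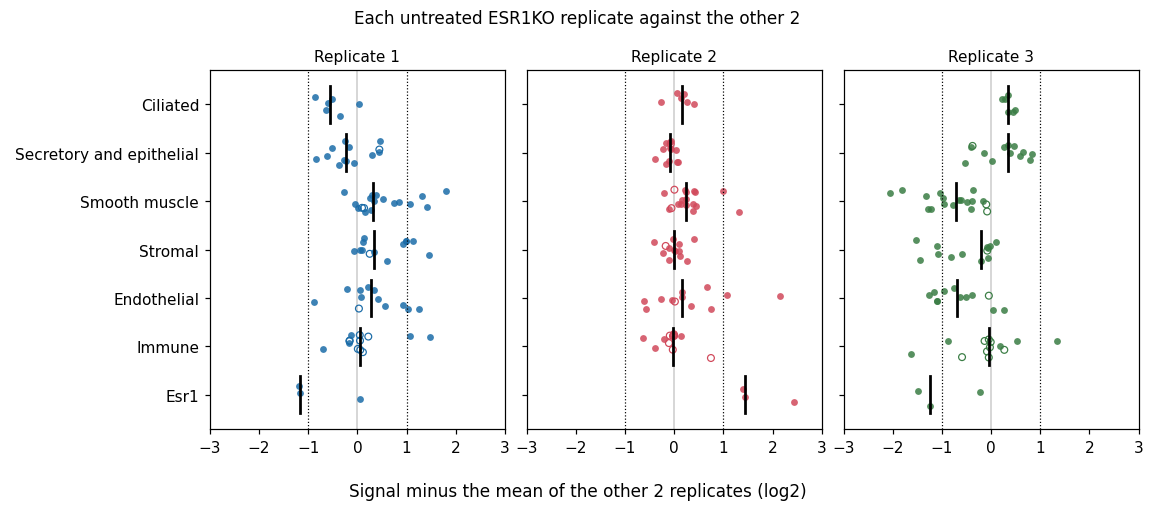
Log2 signal in 1 untreated ESR1KO replicate minus the mean of the other 2 (horizontal axis) for each marker probe set by list and for Esr1, in 1 panel per replicate. Filled points have a mean signal of at least 4, open points are near background, black bars are medians and dotted lines mark 2-fold: in replicate 2 only 3 marker points pass a line, while in replicate 3 the 15 low points come from smooth muscle, stromal, endothelial and immune markers.

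The plot of each replicate against the other 2 shows that the 3 points past 2-fold in replicate 2 were endothelial and smooth muscle markers, whereas the lists as a whole lay apart in replicates 1 and 3. The difference between replicates 1 and 3 was therefore described as well, after the values had been seen. Replicate 1 was above replicate 3 for 0 of 6 ciliated, 4 of 13 secretory and epithelial, 18 of 18 smooth muscle, 12 of 13 stromal, 11 of 12 endothelial and 9 of 13 immune probe sets, compared with 59.6% of all probe sets. With a mean signal of at least 4 the counts were 0 of 6, 3 of 12, 16 of 16, 11 of 12, 10 of 11 and 2 of 5, compared with 39.7% of 26149 probe sets. Other genes of the same cell types, which are not among the 41, were counted in the same way. Among those with a mean signal of at least 4, to which the same 39.7% applies, replicate 1 was above replicate 3 for 5 of 26 probe sets of other ciliary structure genes (median difference -0.65), 3 of 9 of regulators of multiciliation (-0.28), 1 of 19 of other epithelial genes (-0.64) and 2 of 5 of mesothelial genes (-0.83). It was above replicate 3 for 16 of 18 probe sets of other smooth muscle genes (0.80), 17 of 21 of other stromal genes (0.76), 8 of 9 of other endothelial genes (1.04) and 9 of 11 of pericyte genes (1.68), and 7 of those 9 belong to Rgs5 and Abcc9. For other macrophage genes it was above replicate 3 for 5 of 11 (-0.12). These are counts over probe sets of 2 arrays and carry no test. The lists were chosen with earlier results of these data known, so that the other genes are no independent check.

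**Figure D4:**
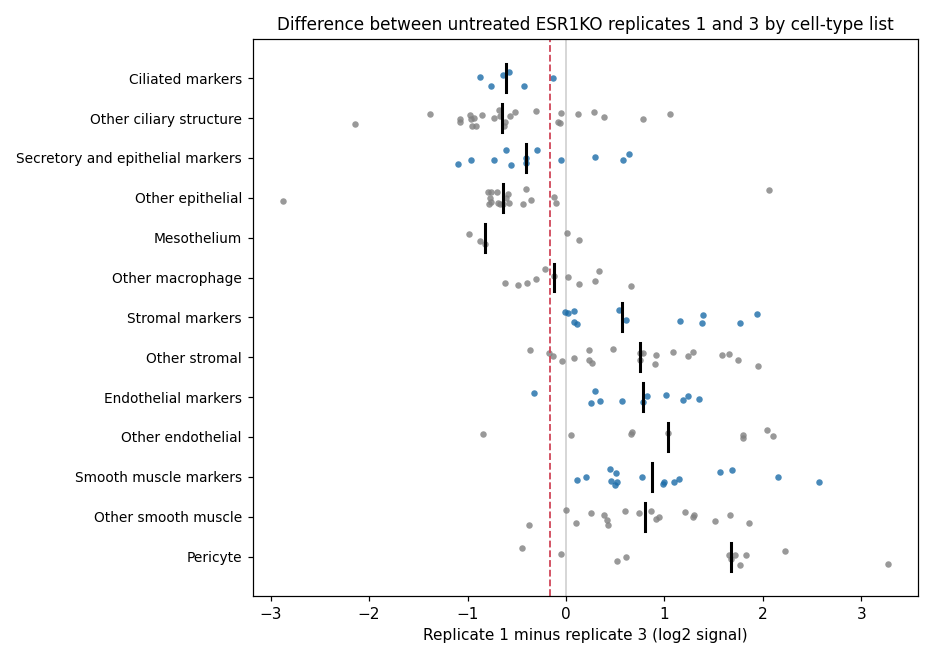
Difference in log2 signal of untreated ESR1KO replicate 1 minus replicate 3 (horizontal axis) for probe sets with a mean signal of at least 4, by cell-type list, with the 41 markers in blue and other genes of these cell types in grey. Black bars are list medians and the dashed line is the median over all such probe sets (-0.16): ciliated and epithelial lists lie to the left, at medians of -0.65 to -0.41, and stromal, endothelial, smooth muscle and pericyte lists to the right, at 0.57 to 1.68.

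The plot of the difference between replicates 1 and 3 by list places the medians of the blue and grey points of a cell type on the same side of 0. A ribosomal control moved with this difference: the probe set for the 5′ end of 18S RNA had signals of 12.71, 8.06 and 5.32 in replicates 1, 2 and 3, that for its middle had 7.61, 6.14 and 5.12, and that for its 3′ end had 6.37, 6.52 and 6.34. The log2 signal at the 3′ end minus that at the 5′ end was 0.77, 0.68 and 0.68 for Actb and -0.04, -0.34 and -0.22 for Gapdh. The difference of replicate 1 from replicate 3 was -0.41, -0.50 and -0.23 for Gapdh at its 5′ end, middle and 3′ end. For Actb it was -0.11, -0.01 and -0.02 in the same order. Gapdh, a control outside the lists, was thus also lowest in replicate 1. The part of the 18S signal and of RNA quality in the differences between the markers was not tested.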

How the data were processed

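RNA of whole oviducts was hybridized to Affymetrix Mouse Genome arrays. Per the labels and the study's methods, the authors used Partek 6.6 to make the deposited log2 signals, correcting background by GC-RMA, normalizing by quantiles and summarizing probes by median polish. The table holds 45101 rows, 64 of them controls, without detection calls. GEO's platform annotation gave 34958 probe sets 1 symbol, 932 several and 9211 none; no probe set with several symbols was named. All 41 marker symbols were RefSeq symbols. Pairs of probe sets of a gene correlated only in the untreated ESR1KO columns, so the other 9 columns gave no value by name and were not used here.

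Means, SDs and differences between arrays were computed with Python 3.11.15, pandas 2.3.3 and numpy 2.4.6, and checked on simulated data. No test was run, since 1 group was read. All markers with every probe set, and Esr1, were named. Of each of 19 other lists, at most 4 genes were named, by the distance of replicate 2 from the other arrays or, for foreign cells, by mean signal. Members and lists were chosen with earlier results of these data known. Of 154 genes in the other lists, 15 had no probe set of 1 symbol. Promoter sequences were from RefSeq (GRCm38.p6). Alternatives were another near-background limit or fold, repeated quantile normalization, median centring, 1 probe set per gene, no _s_at and _x_at probe sets, a mean of at least 4, and each array left out.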

Additional observations from a re-analysis of the deposited data

How the results depend on the processing

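Of 97 values under alternative settings, 90 stayed within the limits set for a change. These limits allowed a change of sign, so that the count does not show that the values were stable. For secretory and epithelial markers, the median of replicate 2 against the others was -0.09 with all arrays. Without replicate 3 it was 0.053, still within the limits. The number of marker genes above the near-background limit was 41 with a limit of 3 and 37 with a limit of 5, and 38 with each array left out. The same counts over all genes were not made with these settings. The number of marker probe sets with replicate 2 at least 2-fold apart, 3 in all, was 1 with 1 probe set per gene, 9 at 1.5-fold and 4 to 12 with an array left out (highest without replicate 1). With an array left out, the difference is that of replicate 2 from the 1 remaining array, so that this count changes by its definition. What made the arrays differ was not tested. For the immune markers, a mean of at least 4 moved the median of replicate 2 against the others to -0.21 and that of replicate 1 minus replicate 3 to -0.24, with 5 probe sets left. For smooth muscle, the median of replicate 2 against the others was 0.24 with all arrays. It was 0.72 without replicate 1 and -0.084 without replicate 3. For ciliated markers this median was 0.17 with all arrays, -0.13 without replicate 1 and 0.50 without replicate 3. The share of marker pairs with the same highest array was 78.2% with the main settings. It was 61.8% after repeated quantile normalization and 88.9% without _s_at and _x_at probe sets, which both stayed within the limits. The share over all genes was not computed under these settings. No paired analysis was made, since the labels give no pairs and only 1 group could be read by name. Arrays give no counting depth; a signal close to 4 is limited by background.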

Other observations

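Of the lists of cells foreign to the oviduct or scarce in it, some had no probe set above the near-background limit and others had a few. None of 8 oocyte, 3 adipocyte and 2 erythroid probe sets reached a mean of 4, whereas 58.0% of all probe sets did. Only 3 of 5 adipocyte genes and 2 of 3 erythroid genes had a probe set with 1 symbol, so that the others were not read. Of 13 probe sets of granulosa and theca genes, 3 reached the limit. Foxl2, a transcription factor of granulosa cells that is also known from other reproductive tissues, had log2 signals of 8.91, 8.74 and 7.80 in replicates 1, 2 and 3 by 1456410_at and a mean of 1.33 by 1444002_at. Inha, the inhibin alpha subunit, had signals of 7.83, 8.07 and 8.22. Star, which carries cholesterol into mitochondria, had signals of 5.52, 5.67 and 4.70 by 1418728_at, and its other 2 probe sets were near background. Of 11 probe sets of genes of other organs, 3 reached the limit, each of a gene whose second probe set did not. Sftpc, surfactant protein C of the lung, had signals of 9.76, 10.13 and 10.52 by 1418639_at and a mean of 2.64 by 1438290_x_at. Umod had signals of 5.49, 5.27 and 4.59 by 1456306_a_at, and Myh6 had 4.66, 3.54 and 5.64 by 1448826_at. Of 4 neutrophil probe sets, S100a8 (6.76, 7.87 and 6.36) and S100a9 (5.11, 6.26 and 5.83) were above the limit, whereas Elane and Mpo were near background at means of 2.12 and 2.20. Of 6 mast cell probe sets, the 2 of Kit were above it, at means of 9.40 and 5.89, and of 7 nerve and glia probe sets only S100b by 1434342_at was, at a mean of 8.33.

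Among genes of the cell types described above but outside the 41, replicate 2 stood farthest from the other arrays for the matrix protein gene Fn1. It had signals of 7.82, 10.05 and 6.91 by 1437218_at, a difference of 2.68, and of 9.79, 11.79 and 9.92 by 1426642_at, a difference of 1.93. Pln, the phospholamban of muscle, had signals of 3.83, 5.79 and 3.57 by 1423359_at, of 4.69, 5.79 and 3.40 by 1460332_at and of 2.68, 4.22 and 2.55 by 1450952_at, with replicate 2 the highest in each. Lum, a proteoglycan of stroma, had signals of 8.84, 10.56 and 9.21. The pericyte gene Rgs5 did not have 1 highest array: it was replicate 1 by 1417466_at (11.32, 11.12 and 9.66) and 1420941_at (9.53, 8.86 and 6.26), and replicate 2 by 1420942_s_at (7.79, 8.17 and 5.56) and 1420940_x_at (7.20, 8.01 and 5.43). Replicate 3 was the lowest in all 4. Abcc9, also of the pericyte list, was highest in replicate 2 and lowest in replicate 3 by each of its probe sets. Its signals were 11.03, 11.08 and 9.36 by 1435752_s_at, 8.36, 8.63 and 6.64 by 1435751_at, and 7.24, 7.83 and 5.42 by 1420408_a_at. Cspg4 by 1423341_at had signals of 6.03, 4.83 and 5.51, with replicate 2 the lowest. Its other probe set, 1450944_at, was near background at a mean of 3.60 and had replicate 3 as the lowest. Dnah5, a dynein heavy chain of cilia, had signals of 7.14, 9.40 and 9.29 by 1421434_at, so that replicate 1 was the low array.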
